A study of Mus musculus with 6 samples.

Results

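ATP-binding cassette (ABC) transporters were examined in the mouse trigeminal ganglion, the sensory ganglion that holds the cell bodies of neurons supplying the face and the meninges. Members were the protein-coding genes whose symbol starts with Abc, a subfamily letter from a to g and a number. This gave 40 of the 17524 genes in the table, 15116 of which were protein-coding: 11 in subfamily A, 9 in B, 9 in C, 4 in D, 1 in E, 3 in F and 3 in G. A tandem run of 5 subfamily A genes on chromosome 11, Abca5, Abca6, Abca8a, Abca8b and Abca9, was treated on its own. The symbols were matched without using any measured value, but the family and this run were put forward with the NTG differences of these data already known. Counts of members that rose or fell are therefore a description and support nothing about the family.

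Bulk RNA sequencing was done on ganglia of wild-type mice, in 3 vehicle libraries and 3 NTG libraries. NTG is not spelled out in the labels; in mouse headache work the letters commonly stand for nitroglycerin. The sources used here give no dose, time after treatment, strain, age or sex. Nothing in the labels says whether the 3 libraries of a group came from separate animals, so p-values here reflect only how far these samples spread, and that spread may be technical.

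The libraries held 18813027 to 23774244 reads, and values are normalised reads, that is gene counts divided by a size factor per library. At this depth 3 reads corresponded to 0.126 to 0.159 CPM, a gene's reads scaled to the library total. NTG replicate 1 stood apart. All 12 of 12 liver marker genes, a list added after the data had been seen, were highest in this library, and their summed level was 455 CPM, against 2.76 to 3.57 CPM in vehicle and 4.88 CPM in each of NTG replicates 2 and 3. Alb, which encodes serum albumin, stood at 6292 normalised reads there and at 0 to 18.1 in the other 5 libraries. Calls of members and counts of gene lists are therefore also given without NTG replicate 1 where they differ.

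ABC proteins use ATP, bound by a pair of conserved nucleotide-binding folds, to move substrates across membranes. Members of subfamilies A and G mostly export sterols and phospholipids, B and C carry drugs, peptides, conjugates and metal-linked compounds or gate potassium channels, and D imports fatty acids into peroxisomes. Subfamilies E and F have no membrane-spanning part and act on ribosomes and translation. In nervous tissue the family is best known for the drug pumps of vascular endothelium and for lipid supply to myelin and glia.

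In limma-trend on log2(value + 1) over the 17475 genes tested, 39 members were tested, of which 11 rose and 6 fell in NTG at an adjusted p under 0.05. Among all genes tested, 25.8% passed, 12.3% upwards and 13.5% downwards. At an unadjusted p under 0.05, 3109 of the 17475 genes rose and 3342 fell. In the count-based tests edgeR and DESeq2, 12.7% and 11.8% of the genes rose and 13.3% and 13.0% fell at an adjusted p under 0.05. The median log2 fold change (NTG over vehicle) was 0.12 over the members and 0.00 over all genes tested. Outside the tandem run, 34 members were tested, of which 6 rose and 6 fell, with a median of 0.05. Among the 11 members that rose were Abca5, Abca6, Abca8a, Abca8b, Abca9, Abcb1a, Abcd2, Abcd3, Abce1 and Abcg2. The 6 that fell were Abca2, Abca3, Abca7, Abcb9, Abcc10 and Abcg1. By bare values, 14 members had all 3 NTG libraries above all 3 vehicle libraries and 7 had all 3 below, where 19.7% and 20.0% of all genes did. Without NTG replicate 1, 10 members rose and 2, Abca2 and Abcc10, fell, and 8.36% and 9.33% of all genes were called in these directions. In these bulk samples fewer cells of a type and less RNA per cell cannot be told apart. Single values in parentheses after a call are limma adjusted p-values.

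Fold changes of the members were related to the base composition of their transcripts. Median GC content of the longest annotated transcript was 42.7% in the 11 members that rose, 57.5% in the 6 that fell and 52.9% in the 22 that did not pass, and no riser was above 45.2% and no faller below 52.7%. Across the 39 members, log2 fold change and GC content had a Pearson r of -0.78 and a Spearman rho of -0.82; across 14931 protein-coding genes the values were -0.53 and -0.64. Genes are not independent replicates, and they share the same 6 libraries. Taken as the deviation from each gene's mean over the 6 libraries, the log2 level changed with GC content by 0.11 to 0.19 per 10 percentage points in the vehicle libraries and by -0.22 to -0.08 in the NTG libraries. When each library's smooth trend over GC content and length was removed, 5 members rose (Abca6, Abca8a, Abca8b, Abce1 and Abcf2) and 0 fell, where 4.12% and 5.22% of 16272 genes did so (9.34% in all). The median over members was again 0.12. Outside the tandem run, 2 of 34 members rose and 0 fell after the correction, with a median of 0.07. In limma 1 member, Abcc10, fell at an unadjusted p under 0.05, where 1851 of the 16272 genes did. A relation to GC content remained among the members after the correction, with a Pearson r of -0.30 and a Spearman rho of -0.41. Across protein-coding genes the values were then -0.013 and -0.0095. The trend had been fitted over these genes and removed, so values near 0 there are fixed by the correction. With the correction and without NTG replicate 1, 4 members rose and 0 fell, beside 2.80% and 3.80% of all genes. The part of base composition in the differences was not tested, so a second value, called GC-corrected, is given beside the results on single members. Of the 17 members that passed, 3 changed sign with the correction, and of the 22 that did not pass, 6 did.

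**Figure D1:**
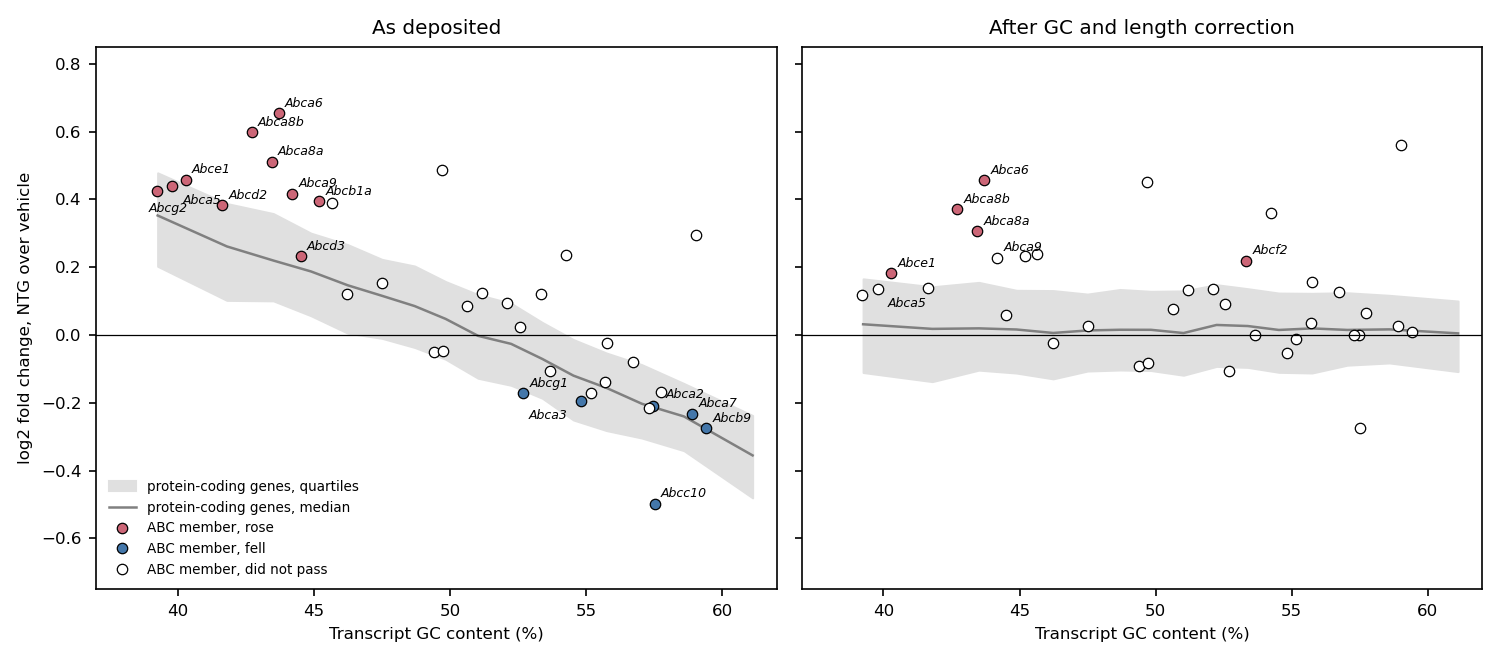
Log2 fold change of NTG over vehicle (vertical axis) against transcript GC content in percent (horizontal axis) for 36 ABC genes, as deposited (left) and after the GC and length correction (right); the grey line and band are the median and quartiles of protein-coding genes. Members that rose lie at or below 45.2% GC on the left, the 3 tandem genes Abca6, Abca8a and Abca8b stay between 0.31 and 0.46 on the right, and Abca17, a gene near the detection limit at 0.96, is not drawn.

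The 5 tandem genes of chromosome 11 lie on the minus strand within 405.518 kb (GRCm38, chr11:109932206-110337723), in the order Abca8b, Abca8a, Abca9, Abca6 and Abca5. They encode full-length lipid transporters that are shorter than the other subfamily A proteins. ABCA5 is found in endosomes and lysosomes and has been tied to cholesterol handling in human cells, and human ABCA8 has been tied to cholesterol efflux; the substrates of the other members are less well defined. All 5 rose in NTG, with log2 fold changes of 0.42 to 0.65 and a median of 0.51. Because this run was set apart with these values in view, its differences carry no p.

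The promoters of the tandem genes are shown for their CpG content, which differed from gene to gene. A part of the promoters in the NTG differences was not tested. RefSeq windows on GRCm38.p6, minus strand, run from 250 bases before to 50 after the start annotated for each window. They are written 5′ to 3′ with CpG pairs in capitals. In the deposited coordinates Abca8a and Abca8b start at 110097580 and 109996274, so their windows lie wholly inside the genes. Contents and positions given for these 2 windows thus refer to the window's own start, not to the deposited start of the gene. Of the 40 members, 28 had an entry, in 34 windows; Abca6 had none.
Abca8b, chr11:109995796-109996095: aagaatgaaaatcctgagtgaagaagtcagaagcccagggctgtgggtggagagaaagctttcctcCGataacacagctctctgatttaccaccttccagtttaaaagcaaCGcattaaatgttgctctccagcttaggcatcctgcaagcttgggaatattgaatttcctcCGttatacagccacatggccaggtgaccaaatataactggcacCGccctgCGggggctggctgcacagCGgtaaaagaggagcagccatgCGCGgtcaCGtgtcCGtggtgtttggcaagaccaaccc
Abca8a, chr11:110095888-110096187: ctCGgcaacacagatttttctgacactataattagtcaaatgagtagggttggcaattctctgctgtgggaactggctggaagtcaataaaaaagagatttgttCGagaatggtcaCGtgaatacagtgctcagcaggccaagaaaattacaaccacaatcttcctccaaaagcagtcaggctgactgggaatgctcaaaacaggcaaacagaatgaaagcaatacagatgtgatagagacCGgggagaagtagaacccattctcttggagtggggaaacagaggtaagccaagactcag
Abca9, chr11:110168104-110168403: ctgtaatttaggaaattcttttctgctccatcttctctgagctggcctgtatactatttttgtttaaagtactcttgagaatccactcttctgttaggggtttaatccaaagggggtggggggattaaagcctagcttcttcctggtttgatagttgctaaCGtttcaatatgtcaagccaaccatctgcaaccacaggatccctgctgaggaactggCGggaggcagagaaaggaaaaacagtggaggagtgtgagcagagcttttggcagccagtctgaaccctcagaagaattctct
Abca5, chr11:110337667-110337966: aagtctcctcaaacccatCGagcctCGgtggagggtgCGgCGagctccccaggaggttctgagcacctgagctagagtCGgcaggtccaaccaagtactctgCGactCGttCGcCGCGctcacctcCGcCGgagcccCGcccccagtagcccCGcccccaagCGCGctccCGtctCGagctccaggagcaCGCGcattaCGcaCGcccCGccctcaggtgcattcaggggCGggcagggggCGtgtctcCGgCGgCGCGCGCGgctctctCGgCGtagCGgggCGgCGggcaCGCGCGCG
The Abca5 window held 40 CpG pairs and was 72.3% GC. Those of Abca8b, Abca8a and Abca9 held 10, 4 and 2. Over all 32851 windows the median was 7 and the quartiles 3 and 20, and 3.91% of windows held at least 40. The E-box letters CACGTG, searched on both strands, were in the windows of Abca8a and Abca8b and in those of Abca1, Abcc4 and Abcf1, against 7.15% of all windows. The longer run GGTCACGTG, which contains the E-box and was chosen after these windows had been read, was in 1.11% of all windows and, among members, in Abca8a at -139 and in Abca8b at 15 bases from the start. No E-box letters were in the Abca9 or Abca5 window.

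Coding sequences of the tandem genes also differed from those of the other subfamily A members. The stretches below cover the first Walker A loop, the phosphate-binding loop of the first nucleotide-binding fold, and show the relatedness of the tandem genes beside 3 other subfamily A members. Each is 60 bases of the longest GENCODE M21 transcript (GRCm38), 5′ to 3′, with the 8 codons of the loop in capitals.
Abca5: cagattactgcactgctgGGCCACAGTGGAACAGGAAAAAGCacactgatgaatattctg
Abca6: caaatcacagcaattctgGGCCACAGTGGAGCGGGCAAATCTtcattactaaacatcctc
Abca8a: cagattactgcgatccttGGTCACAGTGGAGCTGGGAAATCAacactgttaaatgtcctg
Abca8b: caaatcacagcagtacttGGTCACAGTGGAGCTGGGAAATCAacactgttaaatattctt
Abca9: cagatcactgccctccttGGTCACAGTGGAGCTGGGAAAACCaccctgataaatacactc
Abca1: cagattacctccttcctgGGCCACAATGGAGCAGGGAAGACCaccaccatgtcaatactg
Abca2: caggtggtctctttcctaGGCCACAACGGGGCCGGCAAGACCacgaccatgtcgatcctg
Abca7: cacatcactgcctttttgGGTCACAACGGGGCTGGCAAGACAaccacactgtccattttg
The run CACAGTGG was picked after the stretches had been read, so its presence in 5 of 5 tandem genes is fixed by that choice; it was in 0 of 6 other subfamily A members and 0 of 29 members of the other subfamilies. The last bases of codons were 42.1% to 51.8% GC in the tandem genes and 58.1% to 71.3% in the other 6. Open reading frames ran to 1620 to 1642 codons in the tandem genes and 1704 to 2433 in the other 6. No 100-base window was shared between transcripts of any tandem genes.

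Abca6 showed the largest difference of the run. Its values were 2203, 2305 and 2221 normalised reads in vehicle replicates 1 to 3 and 3694, 3654 and 3259.9 in NTG replicates 1 to 3. Every NTG library lay above every vehicle library; the lowest of them was NTG replicate 3. The mean rose from 2243 ± 54.1 to 3536 ± 239.8 (SD, n = 3 each), a log2 fold change of 0.65 ± 0.06 (SE) and 0.46 ± 0.05 after GC correction.

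Abca8a was the most abundant of the 5, with 3996, 4217 and 4165 normalised reads in vehicle and 6026, 5997 and 5629 in NTG. The NTG and vehicle values did not overlap. This gave a log2 fold change of 0.51 ± 0.05, and 0.31 ± 0.04 GC-corrected. Abca8b, its nearest relative and an adjacent gene, stood at 1773, 1498 and 1759 in vehicle and 2614, 2687 and 2314 in NTG. Vehicle replicate 2 was the lowest library, and again the groups did not overlap. The log2 fold change of Abca8b was 0.60 ± 0.07 and the GC-corrected one 0.37 ± 0.06. Per kilobase of transcript, Abca8a was 3.27 ± 0.393 times as abundant as Abca8b in vehicle and 3.07 ± 0.134 times in NTG, ranges that overlapped.

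Abca5 was the steadiest gene in vehicle, at 1514, 1499 and 1511 normalised reads, and stood at 2118, 2095 and 1934 in NTG. All 3 NTG libraries were higher. Its transcript had the lowest GC content of the run, 39.8%, and its log2 fold change of 0.44 ± 0.06 became 0.14 ± 0.05 after GC correction, where it no longer passed. Abca9 was the least abundant, at 599, 608 and 578 in vehicle and 910.4, 796 and 694 in NTG. NTG replicate 1 was the highest library, and the groups did not overlap. Its log2 fold change was 0.42 ± 0.09, 0.32 without NTG replicate 1 and 0.23 ± 0.08 GC-corrected, which did not pass.

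The run as a whole took 17.0%, 16.5% and 17.0% of all normalised ABC reads in the vehicle libraries and 24.6%, 23.6% and 21.9% in the NTG libraries. The share was thus higher in each NTG library. Within the run, Abca6 held 21.8%, 22.8% and 21.7% of the reads in vehicle and 24.0%, 24.0% and 23.6% in NTG, and Abca5 held 15.01%, 14.80% and 14.77% in vehicle and 13.79%, 13.76% and 13.98% in NTG. For neither did the groups overlap, Abca6 being higher and Abca5 lower in NTG. Abca8a held 39.2% to 41.6% over the 6 libraries and Abca9 5.02% to 6.01%. After GC correction the median log2 fold change of the 5 genes was 0.31, with a range of 0.14 to 0.46. In that fit 3 of the 5 rose, beside 4.12% of all genes. With NTG replicate 1 left out as well, 3 rose, beside 2.80% of all genes. The run was set apart with these values in view, so these counts describe it and support nothing about it.

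**Figure D2:**
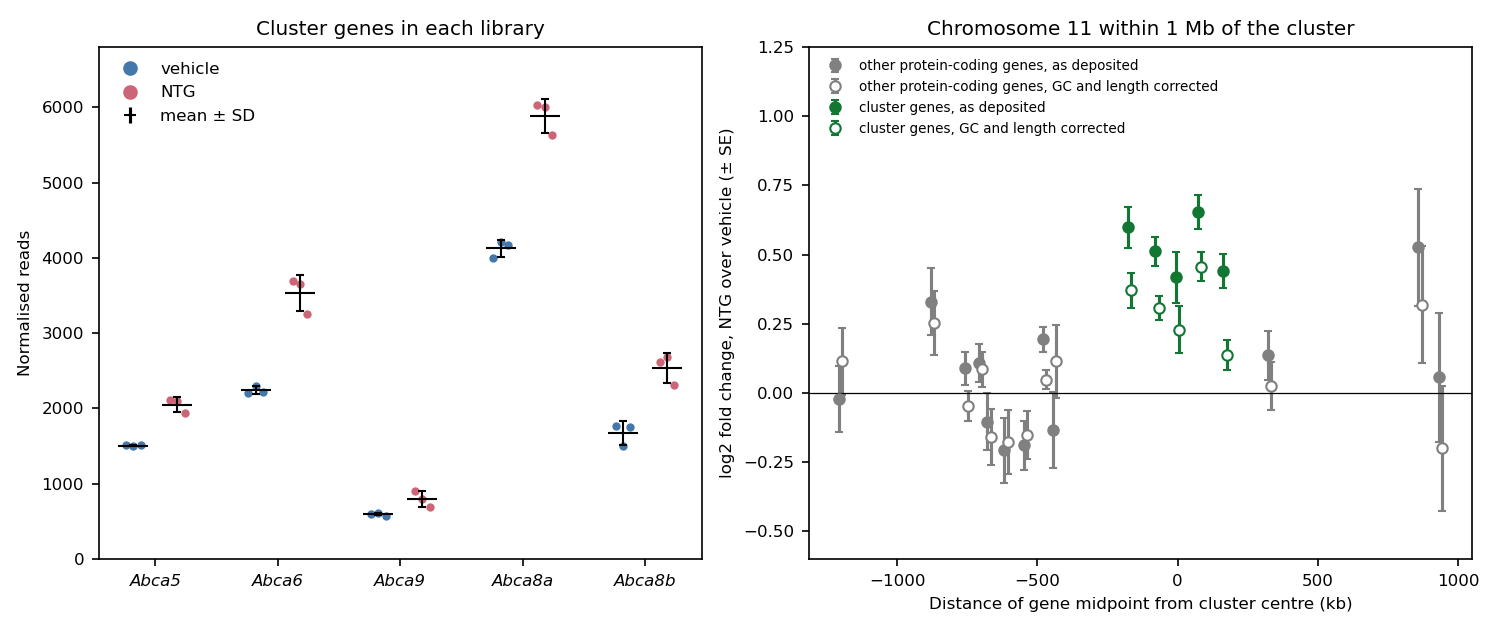
Left, normalised reads of the 5 tandem genes in each library (points) with mean and SD (bars, n = 3 per group); right, log2 fold change of NTG over vehicle (± SE) of these genes and of the 12 protein-coding genes around them, against the distance of the gene midpoint from the centre of the run in kb, as deposited (filled) and GC-corrected (open). The NTG libraries lie above the vehicle libraries for all 5 genes, and the open green points, at 0.14 to 0.46, are below the filled ones, at 0.42 to 0.65.

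The 12 protein-coding genes tested within 1 Mb of either end of the run had a median log2 fold change of 0.07. Of these genes 2 rose and 0 fell, where 12.3% and 13.5% of all genes did. Those 2 were Prkar1a, a regulatory subunit of protein kinase A, at 0.19, and Rgs9, a regulator of G protein signalling, at 0.33 (limma adjusted p 0.00335 and 0.0483). After GC correction 0 of the 12 passed, beside 9.34% of all genes, and the median of the 12 was 0.04. The nearest flanking genes were Fam20a at -0.13 and Map2k6 at 0.14; neither passed. Kcnj16, a potassium channel subunit farther off, was at 0.53 with an SE of 0.21 and did not pass (0.0732). The genes of the run and the flanking genes were measured in the same 6 libraries.

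Among the 6 subfamily A genes outside the run, 0 rose (1, Abca1, at an unadjusted p under 0.05) and 3 fell, with a median log2 fold change of -0.05. Of all genes, 12.3% rose and 13.5% fell. After GC correction 0 of the 6 rose and 0 fell, beside 4.12% and 5.22% of all genes. Abca2, an endosomal and lysosomal lipid transporter that is abundant in myelinating glia, was the most abundant ABC gene per kilobase, at 1215 ± 38.1 normalised reads per kb in vehicle. It stood at 9449, 10060.3 and 9780.2 normalised reads in vehicle and 8104, 8626 and 8599.8 in NTG. Every NTG library was lower than every vehicle library. It had a log2 fold change of -0.21 ± 0.05 (limma adjusted p 0.00335), and 0.00 ± 0.04 GC-corrected (adjusted p 0.997). Per kb, Abca2 was 6.64 ± 0.241 times as abundant as Abca5 in vehicle and 4.23 ± 0.318 times in NTG. These ratios cannot overlap between the groups, since Abca2 was lower and Abca5 higher in every NTG library. They were not GC-corrected, and the GC-corrected log2 fold changes of Abca2 and Abca5 were 0.00 and 0.14.

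Abca3 moves phospholipids into the lamellar bodies of lung surfactant cells. It stood at 5202, 5663 and 5729.5 normalised reads in vehicle and 4419.8, 4976 and 5131 in NTG, where NTG replicate 1 was lowest. The groups did not overlap. Its log2 fold change of -0.19 ± 0.06 (limma adjusted p 0.0226) did not pass without vehicle replicate 2 (0.0977), vehicle replicate 3 (0.0886) or NTG replicate 1 (0.144), and was -0.05 ± 0.05 GC-corrected (adjusted p 0.527). Abca7, a phospholipid exporter whose human counterpart is a risk gene for Alzheimer's disease, stood at 5055, 6068 and 5736 in vehicle and 4323, 4830.3 and 5201 in NTG. NTG replicate 3 exceeded vehicle replicate 1, so the groups overlapped. NTG over vehicle gave a log2 fold change of -0.23 ± 0.07 (limma adjusted p 0.0263). The call was lost without vehicle replicate 2 (0.133), vehicle replicate 3 (0.085), NTG replicate 1 (0.116) or NTG replicate 2 (0.0638), and the GC-corrected value was 0.03 ± 0.04 (adjusted p 0.774).

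Abca1 loads cholesterol and phospholipid onto apolipoproteins. It stood at 1945, 2108 and 1962 normalised reads in vehicle and 2209, 2319 and 2166 in NTG. The 3 NTG values were the 3 highest, but the log2 fold change of 0.15 ± 0.06 did not pass (limma adjusted p 0.0683). Abca4, the retinoid flippase of photoreceptors, was near the lower limit, with 30.7 ± 2.08 and 33.6 ± 9.30 normalised reads in vehicle and NTG, a difference that did not pass (0.859). Abca17 was at 6.10 ± 6.23 and 9.45 ± 1.72. It overlaps Abca3 by 138 bases on the opposite strand, Abca3 was 667 times as abundant, and the sources used here do not state the strand setting of the counting, so the value of Abca17 is uncertain. GC-corrected log2 fold changes of Abca1, Abca4 and Abca17 were 0.03, 0.14 and 0.87, and none passed.

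**Figure D3:**
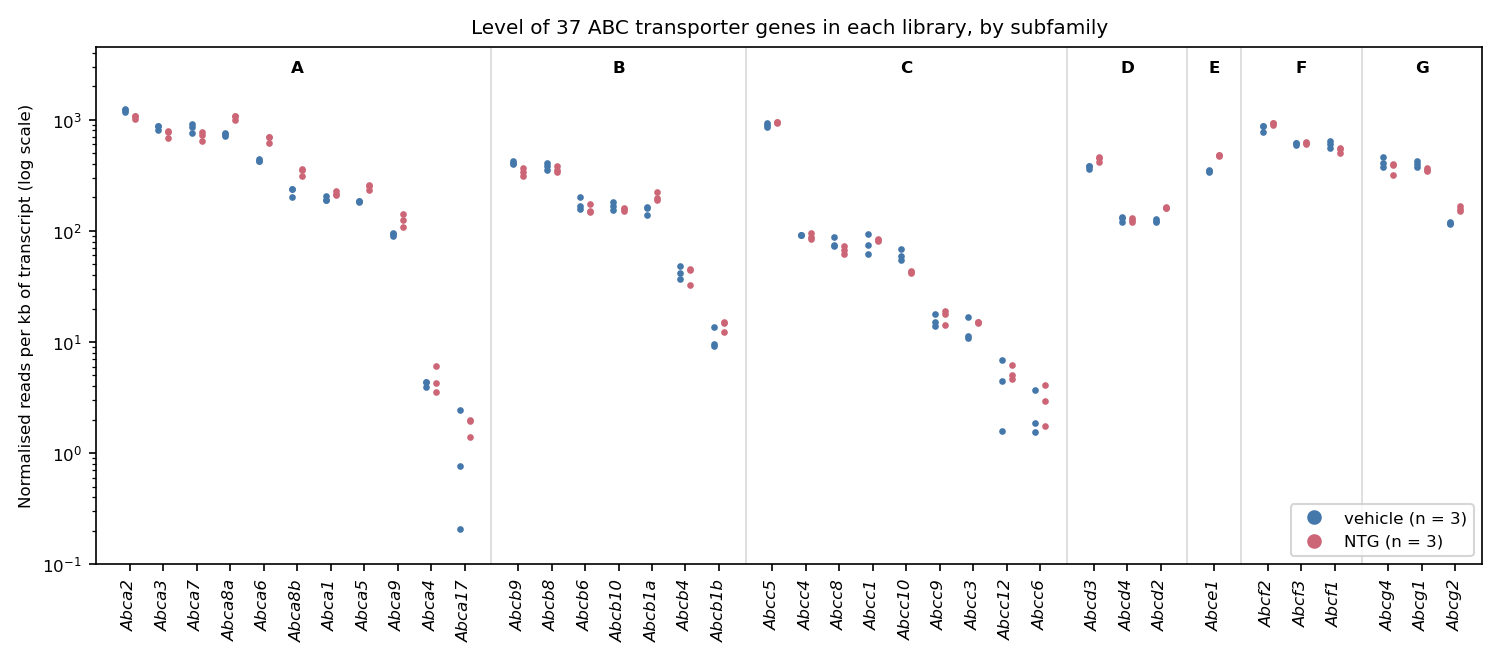
Normalised reads per kb of transcript (log scale) for 37 ABC genes in each of the 3 vehicle and 3 NTG libraries, grouped by subfamily and sorted by the vehicle mean. Abcb11, at 0 in 5 libraries, is not drawn; Abca2 tops the family, and the 5 tandem genes Abca5 to Abca9 have every NTG point above every vehicle point.

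In subfamily B, 8 of 9 genes were tested, of which 2 rose and 1 fell (median log2 fold change -0.06), beside 12.3% and 13.5% of all genes. Abcb1a encodes P-glycoprotein, the drug efflux pump of brain and nerve capillaries. It stood at 795, 825 and 697 normalised reads in vehicle and 1108, 996 and 946 in NTG. The groups did not overlap, and NTG replicate 1 was highest. NTG over vehicle gave a log2 fold change of 0.40 ± 0.08 (limma adjusted p 0.00151) and 0.33 without NTG replicate 1 (0.0148). GC-corrected it was 0.23 ± 0.08, where it did not pass (0.0566). Abcb1a overlaps Rundc3b by 55994 bases on the opposite strand. Rundc3b averaged 298 normalised reads against 895 for Abcb1a, and its log2 fold change of -0.07 did not pass (0.713). The strand setting of the counting is not given, and any part of Rundc3b in the Abcb1a reads was not tested.

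The second P-glycoprotein gene, Abcb1b, stood at 41.4, 58.7 and 39.7 in vehicle and 53.4, 65.1 and 63.3 in NTG. Its groups overlapped, and its log2 fold change of 0.39 ± 0.25 did not pass (0.279). Abcb1a was 14.6 ± 2.26 times as abundant as Abcb1b per kb in vehicle and 14.6 ± 2.80 times in NTG. The pair shares 367 of its 100-base windows, 7.49% of those of Abcb1a and 8.72% of those of Abcb1b, so part of the reads of the rarer gene could belong to the other. The first Walker A stretch, shown for how alike the copies are, had the same letters in both.
Abcb1a: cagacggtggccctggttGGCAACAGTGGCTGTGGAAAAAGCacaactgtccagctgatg
Abcb1b: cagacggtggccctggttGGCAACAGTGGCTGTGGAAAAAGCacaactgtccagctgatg
Abcb4, which exports phosphatidylcholine into bile, lies beside them, shares 11 windows with Abcb1a and had a log2 fold change of -0.05 ± 0.16 that did not pass (0.861).

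Abcb8 and Abcb10, which act in mitochondria, were at -0.08 ± 0.07 and -0.11 ± 0.08 and did not pass (adjusted p 0.48 and 0.391). Abcb8 overlaps the more abundant Cdk5 on the opposite strand. After GC correction Abcb1b, Abcb4, Abcb6, Abcb8 and Abcb10 were at 0.24, -0.09, 0.04, 0.13 and 0.00, of which none passed, Abcb6 and Abcb8 having changed sign.

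Abcb9, a lysosomal peptide carrier, fell. It stood at 1446, 1480.1 and 1565 in vehicle and 1139, 1228 and 1353 in NTG. The groups did not overlap. The fold change was -0.27 ± 0.07 on the log2 scale (limma adjusted p 0.00759), did not pass without NTG replicate 1 (0.0575), and was 0.01 ± 0.06 GC-corrected (0.958). Its transcript had the highest GC content of the family, 59.4%. Abcb6, which is tied to porphyrin transport, was at -0.14 ± 0.10 and did not pass (0.351). Abcb11, the bile salt export pump of hepatocytes, was the single member not tested. It had 53 reads (55.5 normalised reads) in NTG replicate 1, the library with liver transcripts, and 0 in the other 5 libraries.

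In subfamily C, 0 of 9 genes rose, also at an unadjusted p under 0.05 and in edgeR and DESeq2, and 1 fell (limma median log2 fold change 0.12). Of all 17475 genes tested, 3109 rose at that unadjusted p, and 12.7% and 11.8% rose in edgeR and DESeq2. In limma 12.3% of all genes rose and 13.5% fell at an adjusted p under 0.05. Abcc10, a carrier of conjugates and drugs, stood at 312, 360.3 and 286 normalised reads in vehicle and 225, 229 and 220.2 in NTG. The NTG libraries lay close together and below all vehicle libraries, of which replicate 2 was highest. On the log2 scale the fold change was -0.50 ± 0.12 (limma adjusted p 0.00429), the largest fall among the members named Abc that passed, and -0.28 ± 0.12 GC-corrected, which did not pass (0.161).

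Abcc5, which exports cyclic nucleotides and other organic anions, was the most abundant of the subfamily, at 894 ± 38.0 normalised reads per kb in vehicle. It stood at 5403, 5221 and 4963 in vehicle and 5543, 5559 and 5418 in NTG. All NTG values were the higher ones, by little, and the log2 fold change of 0.08 ± 0.05 did not pass (0.254). Abcc4, which carries cyclic nucleotides and prostaglandins, was at -0.05 ± 0.09 (0.745), with groups that overlapped. Abcc1, which exports glutathione conjugates such as leukotriene C4, was at 0.12 ± 0.12 (0.471); vehicle replicate 1 was its highest library, and without it Abcc1 passed (0.046).

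Abcc8 and Abcc9 encode the sulfonylurea receptors SUR1 and SUR2, the regulatory subunits of ATP-sensitive potassium channels, whose openers provoke headache in people. Abcc8 stood at 364, 357 and 425 normalised reads in vehicle and 303, 354 and 329 in NTG. The groups did not overlap, but the log2 fold change of -0.22 ± 0.11 did not pass (0.16). Abcc9 stood at 133, 113 and 105 in vehicle and 141, 134 and 107 in NTG, with overlap and a log2 fold change of 0.12 ± 0.18 (0.666). The pore subunits did not pass either: Kcnj8 was at 0.36 ± 0.27 (0.354) and Kcnj11 at -0.35 ± 0.14 (0.0683). Abcc3, Abcc6 and Abcc12 were low, at 64.9, 11.8 and 21.0 normalised reads on average in vehicle, and did not pass (adjusted p 0.483, 0.725 and 0.462). None of the subfamily passed after GC correction, where Abcc1, Abcc3, Abcc4, Abcc5, Abcc6 and Abcc12 were at 0.13, 0.36, -0.08, 0.08, 0.56 and 0.45. Abcc8 and Abcc9 changed sign with it, to 0.00 ± 0.11 and -0.02 ± 0.17, and Kcnj8 and Kcnj11 were at 0.45 and -0.13.

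Of the 4 subfamily D genes, 2 rose and 0 fell (median log2 fold change 0.11), beside 12.3% and 13.5% of all genes. In limma 1 of the 4 was lower at an unadjusted p under 0.05, where 3342 of 17475 genes were. Abcd2, a peroxisomal importer of very long-chain and polyunsaturated fatty acids, stood at 670.2, 681 and 699.5 normalised reads in vehicle and 882, 883 and 913 in NTG. All 3 NTG libraries were higher, with little spread in either group. The log2 fold change was 0.38 ± 0.07 (limma adjusted p 0.000762), and 0.14 ± 0.07 GC-corrected (0.273). Abcd3, the most abundant of the peroxisomal importers, takes in branched-chain fatty acids and bile acid precursors. It stood at 1335, 1268 and 1345 in vehicle and 1577, 1624 and 1442 in NTG. The groups did not overlap. Its log2 fold change of 0.23 ± 0.07 (0.0144) did not pass without vehicle replicate 2 (0.0651), NTG replicate 1 (0.0568) or NTG replicate 2 (0.104), and was 0.06 ± 0.06 GC-corrected (0.622).

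Abcd4, which acts in the release of vitamin B12 from lysosomes, stood at 323, 312 and 286 normalised reads in vehicle and 299.6, 290.1 and 316 in NTG. The groups overlapped, and its log2 fold change of -0.02 ± 0.11 did not pass (0.91). After GC correction the sign changed, to 0.16 ± 0.11 (0.425).

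Abce1, the single E member, splits ribosomes into subunits after translation ends. It stood at 1342, 1278 and 1319 normalised reads in vehicle and 1835, 1811 and 1769 in NTG. The groups were far apart relative to their spread. On the log2 scale the fold change was 0.46 ± 0.06 (limma adjusted p 3.13e-05), and 0.18 ± 0.06 GC-corrected (0.0417), which passed; without NTG replicate 1 the GC-corrected value did not pass (0.0858). Of the 3 subfamily F genes, 0 passed on the deposited values, in limma as in edgeR and DESeq2, beside 25.8%, 26.0% and 24.8% of all genes. Abcf1 was lower at an unadjusted p under 0.05, where 3342 of 17475 genes were in limma. Abcf1, which works with initiation factor eIF2, was at -0.17 ± 0.07 (0.0704) and passed without vehicle replicate 3 (0.0262). Abcf3 was at 0.02 ± 0.06 (0.823), and GC-corrected values of Abcf1 and Abcf3 were -0.01 and 0.09, with neither passing. Abcf2 stood at 2253, 1995 and 2269 in vehicle and 2306, 2395 and 2379 in NTG, where all 3 values were above the vehicle values. Its log2 fold change was 0.12 ± 0.06 (0.169) and 0.22 ± 0.06 after GC correction, where it passed (0.0139).

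In subfamily G, 1 of 3 genes rose and 1 fell, beside 12.3% and 13.5% of all genes. Abcg2 encodes the breast cancer resistance protein, which pumps drugs, urate and porphyrins and, with P-glycoprotein, guards the blood-brain barrier. It stood at 677, 662 and 692 normalised reads in vehicle and 899, 959.9 and 870.5 in NTG. All NTG libraries were higher. The log2 fold change was 0.43 ± 0.08 (limma adjusted p 0.00039), and 0.12 ± 0.07 GC-corrected, which did not pass (0.355). Abcg1, which moves cholesterol to high-density lipoprotein, stood at 2186, 2461 and 2307 in vehicle and 2001, 2038 and 2126 in NTG. The groups did not overlap, with a narrow gap. Its log2 fold change of -0.17 ± 0.06 (0.046) did not pass without vehicle replicate 2 (0.199), vehicle replicate 3 (0.0793), NTG replicate 1 (0.143) or NTG replicate 2 (0.142), and was -0.11 ± 0.05 GC-corrected (0.239). Abcg4, the sterol exporter of neurons and glia, was at -0.17 ± 0.09 and did not pass (0.182), nor did its GC-corrected value of 0.06 ± 0.07.

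**Figure D4:**
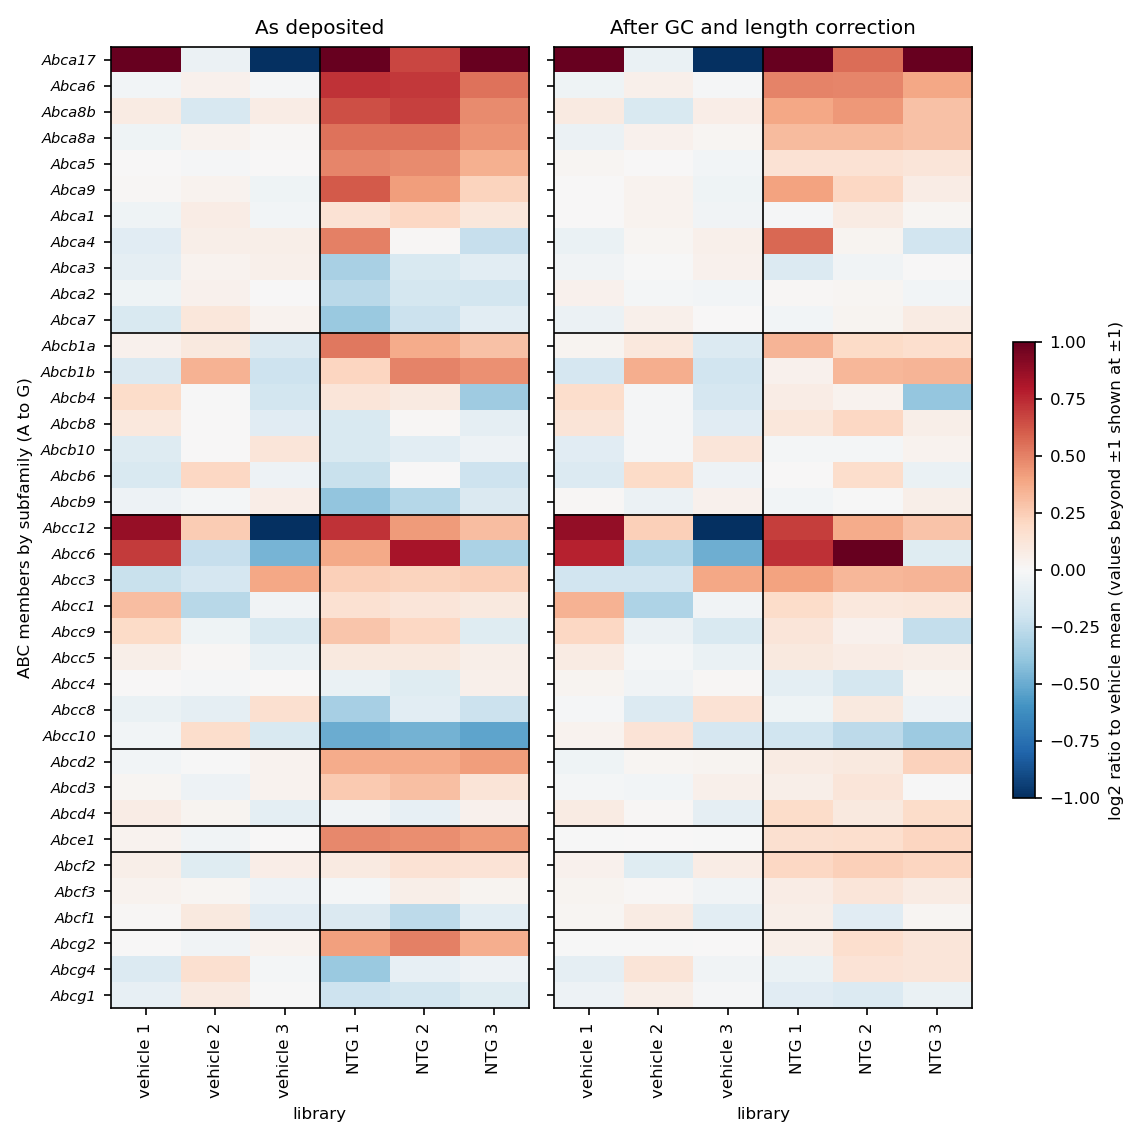
Log2 ratio of each library to the vehicle mean (colour, values beyond 1 in either direction drawn at 1) for 37 ABC genes in the 3 vehicle and 3 NTG libraries, as deposited (left) and GC-corrected (right), with subfamilies divided by lines. The NTG columns of Abca6, Abca8a and Abca8b stay on the red side in both panels, while those of Abca2 and Abcb9 turn from blue to near white.

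By level per kilobase of transcript in vehicle, the family spanned from 0 for Abcb11 to 1215 normalised reads per kb for Abca2. Abcc5, Abca3, Abcf2 and Abca7 followed at 894 ± 38.0, 854 ± 44.4, 846 ± 60.0 and 839 ± 77.1 (SD, n = 3), within each other's spread. Abca8a came next at 734 ± 20.6. In NTG, Abca8a stood at 1047 ± 39.4 and Abca2 at 1051 ± 36.6. The lowest measured members in vehicle were Abcc12 at 4.30 ± 2.67, Abca4 at 4.23 ± 0.286, Abcc6 at 2.38 ± 1.18 and Abca17 at 1.15 ± 1.17, each with few reads.

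Partner genes of the family were counted in lists, read beside the 12.3% of all genes that rose and the 13.5% that fell. After GC correction these shares were 4.12% and 5.22%, and without NTG replicate 1 they were 8.36% and 9.33%. Among 16 sterol- and lipid-sensing regulators, 1 rose and 5 fell (median log2 fold change -0.22), including Srebf2, the activator of cholesterol synthesis, at -0.30 ± 0.05, and its escort Scap at -0.33 ± 0.07. Without NTG replicate 1, 0 and 5 did so, and after GC correction 1 rose and 0 fell. The riser was Nr1h3, the liver X receptor alpha that switches on Abca1 and Abcg1, with GC-corrected 0.60; it did not pass on the deposited values, at 0.37 ± 0.15 (limma adjusted p 0.0828). Of 16 lipid acceptors and sterol traffic genes, 0 rose and 4 fell (median -0.07), among them Apoe, the main apolipoprotein of nervous tissue, at -0.28 ± 0.04 and GC-corrected -0.01. After GC correction 1 of the 16 passed, and without NTG replicate 1, 0 and 3 rose and fell.

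Of 16 peroxisome genes that work beside subfamily D, 4 rose and 1 fell (median 0.01), 2 and 1 did so without NTG replicate 1, and 0 passed after GC correction. Crot and Scp2, enzymes of peroxisomal fatty acid handling, were at 0.31 ± 0.07 and 0.33 ± 0.08, and Pex14, a docking protein for peroxisomal import, at -0.33 ± 0.07. Of 11 translation genes beside Abce1 and Abcf1, 4 rose and 0 fell (median 0.14), and 2 rose and 1 fell after GC correction. Without NTG replicate 1, 3 rose and 1 fell. Eif2s1 and Eif2s3x, the alpha and gamma subunits of eIF2, were at 0.57 ± 0.08 and 0.45 ± 0.06, and after GC correction at 0.31 and 0.26, where both passed. Eif2s2, the beta subunit, was at -0.18 ± 0.10 on the deposited values (limma adjusted p 0.22), and passed as a fall after GC correction at -0.41 (adjusted p 0.00336) and without NTG replicate 1 at -0.30 (0.0356). Of 18 heme and iron-sulfur genes beside the mitochondrial B members, 1 rose and 4 fell (median -0.11), 1 and 2 did so after GC correction, and 1 and 3 without NTG replicate 1. Glrx5, a mitochondrial glutaredoxin of iron-sulfur assembly, was at -0.57 ± 0.08 and Isca1, an assembly factor, at 0.33 ± 0.07; both passed after GC correction as well, at -0.49 and 0.23.

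Tap1 and Tap2 are subfamily B transporters with other symbols, which carry peptides into the endoplasmic reticulum for MHC class I. Both fell, at -0.81 ± 0.23 and -0.54 ± 0.09 (limma adjusted p 0.0259 and 0.000231). Tap1 varied in vehicle, with 497, 339 and 245 normalised reads against 229, 176 and 187 in NTG, and passed in 3 of 6 fits that left out 1 library, with the highest adjusted p, 0.106, without NTG replicate 2. Its GC-corrected value of -0.59 did not pass (adjusted p 0.265). Tap2 stood at 873, 843 and 694 in vehicle and 539.5, 541 and 573 in NTG, and passed GC-corrected at -0.33. Of 7 peptide-loading genes 2 rose and 1 fell, and without NTG replicate 1, 1 and 1 did so, while after GC correction 0 and 1 did. The gene that fell was Tapbp, tapasin, at -0.51 ± 0.07 and GC-corrected -0.29. Of 14 glutathione and conjugation genes, 0 rose and 2 fell, with Mgst3, a microsomal glutathione transferase, at -0.38 ± 0.07 and GC-corrected -0.38. In that list 0 and 1 rose and fell without NTG replicate 1 and 0 and 2 after GC correction. Of 10 solute carriers of blood-tissue barriers, 1 rose and 0 fell; it was Slco1a4, an organic anion carrier of brain capillaries, at 0.53 ± 0.13, and it did not pass after GC correction (0.25).

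Marker lists were counted for the cell types that carry these genes. The counts are read beside the 12.3% of all genes that rose and the 13.5% that fell. These shares were 8.36% and 9.33% without NTG replicate 1, and 4.12% and 5.22% after GC correction. Of 12 endothelial genes, 2 rose and 1 fell (median 0.18); their summed level was 223 to 267 CPM in vehicle and 245 to 255 CPM in NTG, and 0 passed after GC correction or without NTG replicate 1. Pericyte and smooth muscle genes summed to 279.9 to 297 and 283 to 301 CPM, with 1 of 10 up and 1 down. Schwann cell genes summed to 14960.0 to 16545 and 14389.8 to 16004 CPM, with 2 of 10 up and 3 down. For these 3 lists the group ranges overlapped. Of 10 fibroblast genes 0 rose and 3 fell, with 1350.0 to 1487 CPM in vehicle and 1132 to 1308 in NTG, and of 9 satellite glia genes 1 rose and 3 fell, with 5658 to 5792 and 4748 to 4999. The median log2 fold change was -0.25 over the fibroblast genes (GC-corrected -0.13) and -0.01 over the satellite glia genes (GC-corrected -0.11). The satellite glia sum includes Apoe, at 73887 normalised reads in vehicle and 60741 in NTG on average. Of 10 macrophage genes 0 rose and 3 fell, at 156 to 174 and 127 to 142 CPM. Skeletal muscle genes, of which 6 of 9 fell, summed to 9.62 to 17.5 CPM in vehicle and 4.71 to 5.40 in NTG. Of 12 neuronal genes 3 rose and 4 fell, at 22628 to 23784 and 22151 to 22811 CPM, so defining genes of the labelled ganglion were present. Of 6 choroid plexus and pituitary genes tested, 0 rose and 1 fell, and their summed level was 77.7 to 193 CPM in vehicle and 39.4 to 117 in NTG. Without NTG replicate 1 the numbers that rose and fell were 1 and 1 for pericytes and smooth muscle, 0 and 2 for Schwann cells, 0 and 2 for fibroblasts, and 1 and 4 for satellite glia. They were 0 and 3 for macrophages, 0 and 5 for skeletal muscle, 2 and 4 for neurons, and 0 and 1 for choroid plexus and pituitary. After GC correction the numbers were 0 and 0 for pericytes and smooth muscle, 0 and 1 for Schwann cells, 0 and 2 for fibroblasts, and 0 and 2 for satellite glia. They were then 0 and 1 for macrophages, 0 and 4 for skeletal muscle, 3 and 1 for neurons, and 0 and 1 for choroid plexus and pituitary. Of these 9 lists, 0 genes found in the table were at 0 in all vehicle libraries. The part of any of these cell types in the ABC differences was not tested.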

How the data were processed

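The 6 libraries, 3 vehicle and 3 NTG, were grouped and numbered by their labels. Poly-T bead selection, strand-specific NEBNext libraries and paired-end NovaSeq sequencing are per the labels' protocols; FastQC and HISAT2 alignment to GRCm38 are per the submitters' processing notes. Which counting tool, strand setting, annotation and normalization tool were used is not given in the sources used here.

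The deposited values are a signal, gene counts over a size factor per library. All of them (100%) were whole multiples of 1 read (0.867 to 1.10) within a tolerance of 0.01, so whole reads were recovered, on which edgeR's quasi-likelihood test called 4544 genes. The main test was limma-trend (robust, two-sided) on log2(value + 1). It covered 17475 genes, those that reached 1 in 3 or more libraries, with Benjamini-Hochberg adjustment over all of them and a threshold of 0.05, and called 4512. Adding 1 draws the ratios of low values towards 0, yet low genes did not always have smaller fold changes here than in edgeR and DESeq2. Abca17 was at 0.96 against 0.64 in both, and Abcc12 at 0.49 against 0.30 in both. Abca4 went the other way, at 0.10 against 0.13 in both. No pair of libraries was taken as a duplicate, since chi-square per degree of freedom between replicates was 3.99 to 7.76.

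GC content and length were those of the longest basic GENCODE M21 transcript, matched for 16321 genes (93.1%) and 40 of 40 members; 15132 were matched by Entrez ID and the rest by symbol. The correction removed each library's smooth trend over both (mgcv) before the same test. Coordinates are those of the table, on GRCm38. Promoter windows are from RefSeq.

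Members and lists were chosen with earlier results of these data known. Named were all tandem genes, in each subfamily up to 4 members past the threshold per direction and the 2 highest per kb, members whose call changed, the lowest members, and up to 3 genes per partner list with the smallest p. A few members and partners are neither described nor drawn here. Other genes named were chosen after their values were seen, as were the liver list and the fit that joins the GC correction with leaving out NTG replicate 1. Alternatives were the pseudocount, filters, TMM scaling, edgeR, DESeq2, the replicate number as a block, the GC and length correction, and each library left out in turn. Scripts were tested on simulated data. Versions were matplotlib 3.10.9, numpy 2.4.6, pandas 2.3.3 and Python 3.11.15 for tables and figures, and mgcv 1.9.3, DESeq2 1.42.0, edgeR 4.0.16 and limma 3.58.1 in R 4.3.3 for fits.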

Additional observations from a re-analysis of the deposited data

How the results depend on the processing

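Across 17 alternatives, the number of ABC members that rose was 11 in the deposited values and 10 to 12 when 1 library was left out. It was 5 after the GC and length correction, 6 with that correction and the replicate block, and 4 with the correction and without NTG replicate 1. The number that fell was 6, was 2 to 6 when 1 library was left out (3 without vehicle replicate 2 and 2 without NTG replicate 1), and was 0 in all 3 fits with the correction. Of the tandem genes, 3 rose in each of those fits, and their median log2 fold change went from 0.51 to 0.31 in each. Because these genes were set apart with their values known, that count is a description only. Among the members that had risen or fallen, directions turned for 3, with values near 0: with the correction, with or without the block, Abca2 was at 0.000335, Abca7 at 0.0273 and Abcb9 at 0.00775, and with the correction and without NTG replicate 1 Abca7 was at 0.0529 and Abcb9 at 0.0242. A further 6 members that had not passed (Abcb6, Abcb8, Abcc8, Abcc9, Abcd4 and Abcg4) also changed sign with the correction, and none of them passed. The cause of these changes was not tested. The same replicate number did not pair the libraries (correlations of deviations -0.033 to 0.0041 over 3 pairs), so the replicate block, under which 12 members rose and 8 fell beside 14.2% and 15.9% of all genes, is given only as an alternative. Members under about 30 normalised reads, Abca17, Abcc6 and Abcc12 among them, had few reads and a wide spread between libraries. The SEs of these named members were 0.73, 0.52 and 0.45, and their differences did not pass. What change could be detected at such levels was not tested. The gene-level precision covers counting error and the spread of 3 libraries per group.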
